A study of Mus musculus with 7 samples.

Results

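The Ttn gene encodes titin, and it held 200 of the 345 peaks called in the pull-down of lnc-SMaRT and 126 of the 336 peaks called in the pull-down with probes against LacZ. These 326 of 681 peaks are described here. They were chosen by position alone, as every peak on the minus strand of chromosome 2 of GRCm38 within a window that holds the Ttn gene, and no peak of either list lay on the plus strand of that window. The nearest peak on either strand of chromosome 2 outside the window was 323400 bases from its edge in the lnc-SMaRT list and 27000 bases in the LacZ list. C2C12 cells, mouse myoblasts that form myotubes once serum is withdrawn, were collected on day 2 of differentiation. RNA was recovered from cell extracts with biotinylated antisense probes, in 1 library with probe set 1 against the long noncoding RNA lnc-SMaRT, 1 library with probes against the bacterial LacZ mRNA as a control and 1 input library. Total RNA was also sequenced from 2 samples treated with a scramble siRNA (si-SCR) and 2 treated with siRNA against lnc-SMaRT (si-SMaRT). With 1 library for each pull-down, no difference between the lists has a replicate check, and none was tested.

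Titin is the largest known protein, and a single molecule reaches from the Z-disc to the M-band of the sarcomere, the contractile unit of striated muscle. Its I-band portion acts as a molecular spring and its A-band portion as a template for the thick filament. The transcript is assembled from an unusually large number of exons, and its I-band exons are spliced differently between muscles and stages of development, in part through the splicing factor RBM20. In GENCODE M21 the gene spans chr2:76703980-76982547 on the minus strand, has 25 annotated transcripts, and its longest transcript joins 347 exons into 106824 nt. Exons of any transcript cover 116825 bases, which is 41.9% of the gene.

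Each peak is a bin of 200 bases, or several adjoining bins, to which Piranha, a peak caller for RNA-binding data, gave a p-value. Set 1 held 6 probes, and they are shown because the lnc-SMaRT list rests on them; each is an exact antisense of the annotated lnc-SMaRT transcript (Gm14635).
probe 1: tagctagctccagtgactag
probe 2: aactagaacccccaaacaga
probe 3: cagcagttaggttccaattg
probe 4: tgggtaaagtgcttgatgca
probe 5: acacgggcatggtatacaac
probe 6: tgtgccttcatgtggggaag

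The sequences of 7 peaks show where they sat on the gene. They are given as the RefSeq sequence of GRCm38.p6 on the minus strand, 5′ to 3′ in the sense of Ttn, with annotated exonic bases in capitals and intronic bases in lower case. The first pair below was found in both lists and is among the 4 shared peaks with the lowest p-values, the next pair is from the lnc-SMaRT list alone, and the last 3 are all the Ttn peaks that were in the LacZ list alone.
chr2:76790601-76790800, shared, end of exon 246: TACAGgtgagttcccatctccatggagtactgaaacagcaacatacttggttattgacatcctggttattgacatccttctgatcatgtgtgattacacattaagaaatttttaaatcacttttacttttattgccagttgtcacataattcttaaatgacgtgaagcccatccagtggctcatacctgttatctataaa
chr2:76756001-76756200, shared, start of exon 303: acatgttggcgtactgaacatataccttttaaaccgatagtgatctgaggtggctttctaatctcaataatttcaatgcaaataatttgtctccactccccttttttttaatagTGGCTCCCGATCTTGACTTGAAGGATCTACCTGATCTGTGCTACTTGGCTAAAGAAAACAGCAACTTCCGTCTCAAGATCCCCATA
chr2:76884201-76884400, lnc-SMaRT only, end of exon 85: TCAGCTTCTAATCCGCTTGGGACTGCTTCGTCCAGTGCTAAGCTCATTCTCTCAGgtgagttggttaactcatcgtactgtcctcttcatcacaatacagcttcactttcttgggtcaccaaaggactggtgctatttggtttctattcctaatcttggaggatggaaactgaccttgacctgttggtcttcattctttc
chr2:76841601-76841800, lnc-SMaRT only, exons 150 and 151: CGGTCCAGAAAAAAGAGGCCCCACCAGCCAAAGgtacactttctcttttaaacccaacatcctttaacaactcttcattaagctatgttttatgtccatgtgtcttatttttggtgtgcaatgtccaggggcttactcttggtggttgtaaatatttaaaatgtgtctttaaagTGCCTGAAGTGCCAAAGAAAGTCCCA
chr2:76841401-76841600, LacZ only, end of exon 151: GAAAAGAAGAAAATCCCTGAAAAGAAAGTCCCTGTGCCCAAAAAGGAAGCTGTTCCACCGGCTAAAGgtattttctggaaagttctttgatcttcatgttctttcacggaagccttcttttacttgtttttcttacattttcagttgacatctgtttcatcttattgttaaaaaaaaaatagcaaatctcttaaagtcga
chr2:76818601-76818800, LacZ only, end of exon 202: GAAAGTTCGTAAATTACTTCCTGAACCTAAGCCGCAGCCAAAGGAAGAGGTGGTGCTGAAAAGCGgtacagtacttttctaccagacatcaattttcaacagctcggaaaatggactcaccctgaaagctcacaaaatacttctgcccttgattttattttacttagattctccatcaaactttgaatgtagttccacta
chr2:76732601-76732800, LacZ only, start of exon 314: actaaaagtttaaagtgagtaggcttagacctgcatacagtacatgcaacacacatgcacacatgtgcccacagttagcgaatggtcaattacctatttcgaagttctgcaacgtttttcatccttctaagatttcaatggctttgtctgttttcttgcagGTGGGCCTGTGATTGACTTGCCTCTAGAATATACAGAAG
In each of them a boundary between exon and intron lies inside the bin. The intronic letters begin with gt after an exon and end with ag before one, the usual first and last bases of introns. The strongest shared peak held 5 exonic bases and the remaining bases of its bin were intronic.

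Nearly every Ttn peak of the control pull-down was also a peak of the lnc-SMaRT pull-down. Of the 126 LacZ peaks, 123 (97.6%, 95% Wilson interval 93.2% to 99.2%) overlapped a lnc-SMaRT peak by at least 1 base on the same strand. Over all LacZ peaks of the genome, 47.0% did so. Of the 200 lnc-SMaRT peaks, 118 (59.0%, interval 52.1% to 65.6%) overlapped a LacZ peak, while over all lnc-SMaRT peaks the share was 44.1%. Outside Ttn, 34 of 145 lnc-SMaRT peaks (23.4%) and 35 of 210 LacZ peaks (16.7%) were shared. The intervals cover counting error only, and the peaks of 1 transcript are not independent of each other. Start and end were identical for 87 peaks, and 120 of the LacZ peaks lay wholly within a lnc-SMaRT peak. Counted in bins of 200 bases, 148 bins were in both lists, 137 in the lnc-SMaRT list only and 6 in the LacZ list only. The map of peaks along Ttn shows the LacZ peaks as a thinner copy of the lnc-SMaRT peaks.

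**Figure D1:**
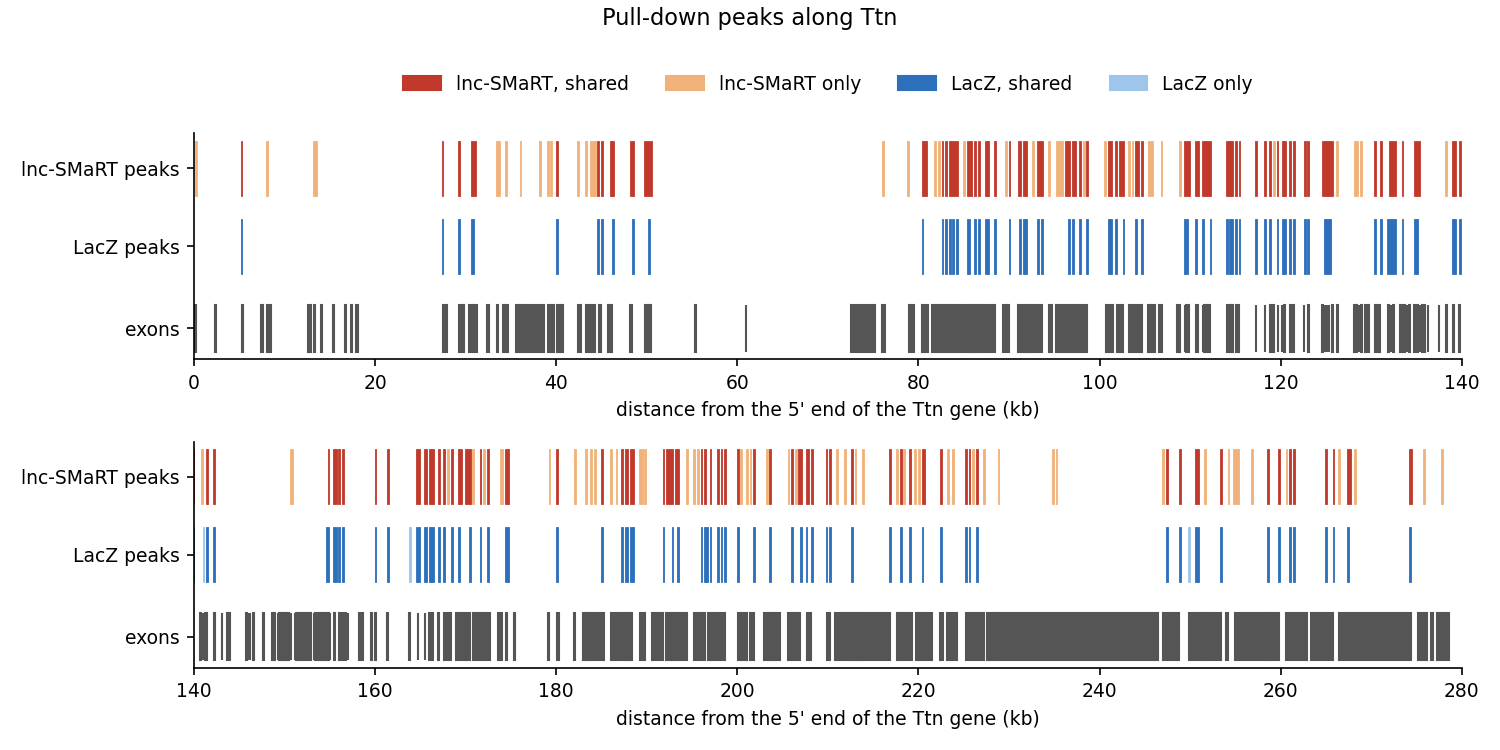
Peaks of the lnc-SMaRT and LacZ pull-downs and exons of the longest transcript, by distance in kb from the 5′ end of Ttn, in 2 rows. Dark colours mark peaks shared with the other list and light colours mark unshared ones; 82 lnc-SMaRT peaks and 3 LacZ peaks are light. A long exon near 230 to 250 kb carries few peaks.

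The lnc-SMaRT peaks that had no LacZ counterpart lay among the others. Their median distance to the nearest LacZ peak was 600 bases, and 56 of the 82 were within 1000 bases of one. The lnc-SMaRT peak at chr2:76841601-76841800 abutted the LacZ peak at chr2:76841401-76841600, so that both lists had a peak beside exon 151 but in neighbouring bins. The farthest was 8600 bases from a LacZ peak.

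The lnc-SMaRT peaks were wider as well as more numerous. Single bins made up 148 of the 200 lnc-SMaRT peaks (74.0%) and 104 of the 126 LacZ peaks (82.5%). The lnc-SMaRT list also held 31 peaks of 400 bases, 13 of 600, 5 of 800, 2 of 1000 and 1 of 1200. The LacZ list held 19 peaks of 400 bases and 1 each of 600, 800 and 1000. Together the lnc-SMaRT peaks covered 57000 bases (20.5% of the gene) with a mean width of 285 bases, and the LacZ peaks 30800 bases (11.1%) with a mean width of 244. The widest lnc-SMaRT peak, chr2:76856801-76858000, ran over exons 120 to 124 and had a p-value of 0.00143. The widest LacZ peak, chr2:76849801-76850800, ran over exons 134 to 136 with 0.00289, and was shared. Between neighbouring lnc-SMaRT peaks the median gap was 400 bases, and 69 gaps were exactly 1 bin long. Outside Ttn, 75.2% of lnc-SMaRT peaks and 75.7% of LacZ peaks were single bins, and the widest peak of each list measured 3800 bases.

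The p-values of the Ttn peaks ranged from 3.73e-08 to 0.00982 in the lnc-SMaRT list, with a median of 0.000979. In the LacZ list they ranged from 2.51e-06 to 0.00994 with a median of 0.00126, and no Ttn peak of either list had a p-value of 0. Within the lnc-SMaRT list the shared peaks had the lower p-values, with a median of 0.000276 against 0.0029 in the unshared ones. A p-value under 0.001 was found in 82 of the 118 shared peaks and in 19 of the 82 unshared ones. For 114 pairs in which 1 peak matched 1 peak, the p-value was lower in the lnc-SMaRT list in 92 and lower in the LacZ list in 22. The medians over these pairs were 0.000221 and 0.00124. Spearman's rho between the p-values of a pair was 0.471 over the 114 pairs, which share the sequence and the annotation, and whether they share the input as a covariate is not stated. A Piranha p-value depends on the number of reads in a library as well as on the peak, the number of reads at each peak is not given, and the part of library depth in these differences was not tested. By the read statistics of the study, the LacZ library kept more reads than the lnc-SMaRT library after filtering.

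**Figure D2:**
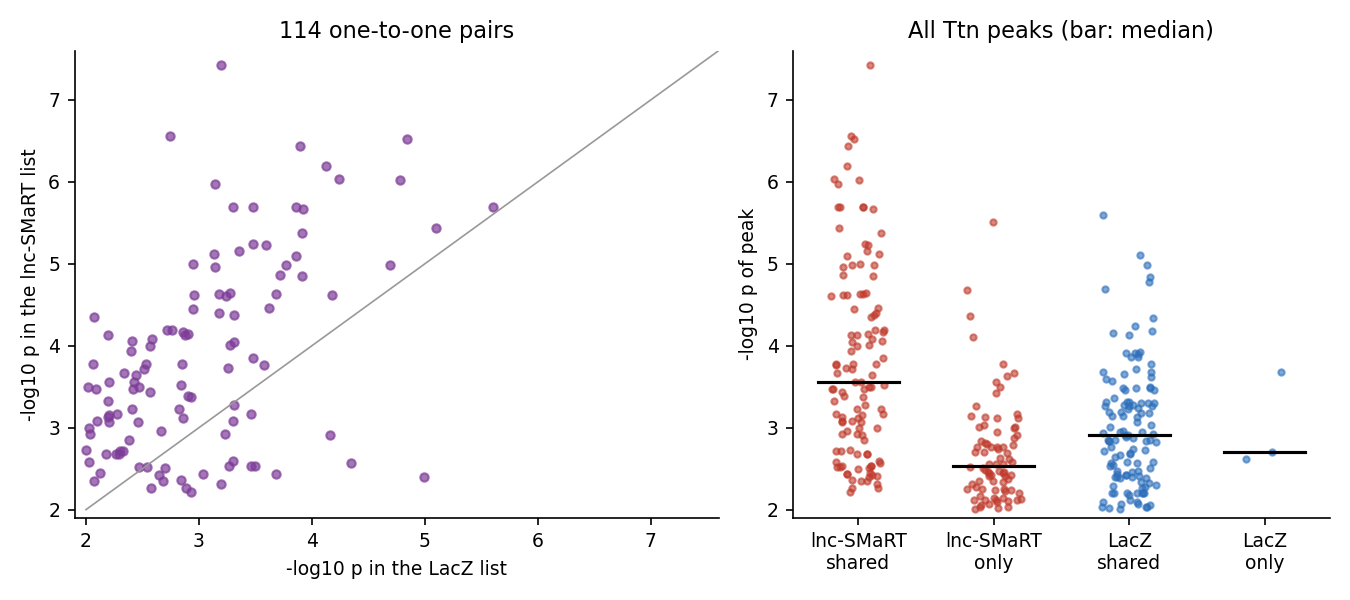
Left, minus log10 of the Piranha p-value of each of 114 matched Ttn peaks in the LacZ list (x axis) and the lnc-SMaRT list (y axis), with the line of equal values; 92 points lie above it. Right, the same quantity for all Ttn peaks of each class, with the median as a bar.

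The 4 shared peaks with the lowest p-values in the lnc-SMaRT list had higher p-values in the LacZ list. The peak at the end of exon 246 (chr2:76790601-76790800) had 3.73e-08 in the lnc-SMaRT list and 0.000643 in the LacZ list. The peak over exons 114 and 115 (chr2:76862001-76862400) had 2.72e-07 and 0.00181. The peak at the start of exon 303 (chr2:76756001-76756200) had 3e-07 and 1.44e-05. At the end of exon 277 (chr2:76774201-76774400) the values were 3.65e-07 and 0.000127. These peaks were picked by their p-values in the lnc-SMaRT list, so that the lower value there was largely set by the choice.

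Among the peaks of the lnc-SMaRT list alone, the lowest p-value was 3.06e-06, at the end of exon 85 (chr2:76884201-76884400), which the shorter of the main annotated transcripts skips. The next were 2.11e-05 at exons 150 and 151, 4.35e-05 at exon 147 (chr2:76844201-76844400) and 7.86e-05 at the end of exon 242 (chr2:76792601-76792800), where the bin holds 10 exonic bases. The 3 peaks of the LacZ list alone had 0.000209 at exon 202, 0.00199 at exon 314 and 0.00243 at exon 151, and each was a single bin. These 3 are within the range of the shared LacZ peaks.

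All 326 Ttn peaks overlapped an annotated exon, and all of them an exon of the longest transcript. Outside Ttn, 120 of 145 lnc-SMaRT peaks (82.8%) and 145 of 210 LacZ peaks (69%) were on an exon. Of the 1394 bins over the gene, 549 hold only intronic bases, and no peak lay there. Coding bases were under 198 of the lnc-SMaRT peaks and all 126 LacZ peaks. The lnc-SMaRT list alone reached the ends of the transcript, with a peak at exon 1 (chr2:76982201-76982400, p-value 0.000316) and one in the last exon, 347 (chr2:76704601-76704800, 0.00113). The LacZ peaks ran from exon 3 (chr2:76977201-76977400, 0.00389) to exon 343 (chr2:76708201-76708400, 0.00533), and both of these were shared.

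Within the exons, the peaks lay at the boundaries with introns. Of the 845 bins that hold exonic bases, 537 contain a splice edge, the first or last base of an exon next to an intron. Of these, 275 (51.2%, interval 47.0% to 55.4%) were under a lnc-SMaRT peak and 154 (28.7%, 25% to 32.6%) under a LacZ peak. Of the 308 bins without a splice edge, 10 (3.25%, 1.77% to 5.87%) were under a lnc-SMaRT peak and 0 under a LacZ peak, with an upper bound of 1.23%. The contrast was present in both lists, so in 196 of the 200 lnc-SMaRT peaks and in all 126 LacZ peaks a splice edge lay inside the peak. Outside Ttn, a splice edge lay inside 84 of 145 lnc-SMaRT peaks (57.9%) and 118 of 210 LacZ peaks (56.2%), and 26.2% and 15.7% were wholly exonic. Unlike the Ttn peaks, not all of these were on an exon. Those on an exon numbered 120 in the lnc-SMaRT list and 145 in the LacZ list.

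The share of bins under a peak was highest in both lists at 51 to 100 exonic bases, and lowest in wholly exonic bins. It was 49.4% in the lnc-SMaRT list and 39.8% in the LacZ list for bins with 1 to 50 exonic bases, and 64% and 46.8% for bins with 51 to 100. For bins with 151 to 199 exonic bases it was 26.2% and 3.88%, and for wholly exonic bins 4.50% and 0.965%. In percentage points the lists differed most at 101 to 150 exonic bases, where 51.9% of bins were under a lnc-SMaRT peak and 16.7% under a LacZ peak. The median number of exonic bases was 81.5 in bins of both lists, 110 in bins of the lnc-SMaRT list only and 200 in bins of neither. Bins with only the start of an exon were under a lnc-SMaRT peak in 56.4% of cases, bins with only the end in 50.8% and bins with both in 45%. The intervals of these 3 shares overlap.

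**Figure D3:**
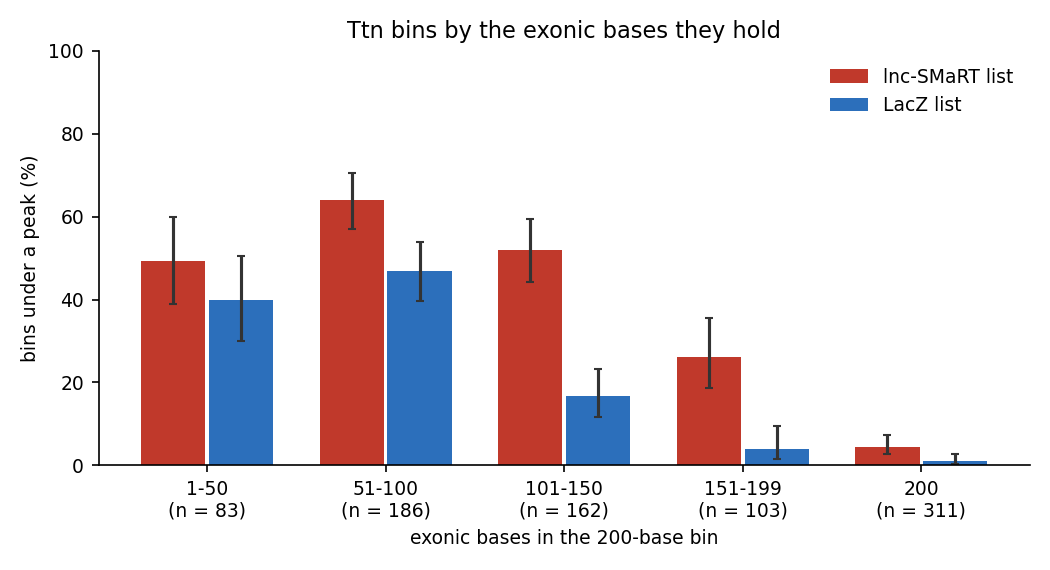
Percent of Ttn bins under a peak of each list, by the number of exonic bases in the 200-base bin, with 95% Wilson intervals as error bars and the number of bins under each class. The share is highest at 51 to 100 exonic bases (64% and 46.8%) and lowest in wholly exonic bins (4.50% and 0.965%).

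The p-values varied with the exonic part of the bin. Among single-bin lnc-SMaRT peaks the median p-value was 0.000102 for 17 peaks with 1 to 50 exonic bases and 0.000173 for 69 peaks with 51 to 100. It was 0.00156 for 46 peaks with 101 to 150 exonic bases, 0.00198 for 11 peaks with 151 to 199 and 0.00611 for 5 wholly exonic peaks. In the LacZ list the medians were 0.000643, 0.00086 and 0.00139 for the first 3 classes, 0.00928 for 2 peaks with 151 to 199 exonic bases and 0.00118 for 3 wholly exonic peaks. Among the unshared lnc-SMaRT peaks the order differed, with a median of 0.00567 for 5 peaks with 1 to 50 exonic bases and 0.00154 for 20 peaks with 51 to 100. The lowest p-value of each list belonged to a bin with at most 50 exonic bases.

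Most exons of 600 bases or more touched a lnc-SMaRT peak, 8 of 9, and 2 of them touched a LacZ peak. Bins that lay wholly inside the longest exons were nearly free of peaks. Exon 309, of 17106 bases, codes for a large part of the A-band region, the portion of titin along the thick filament. Of the 84 bins inside it, 2 (2.38%, interval 0.655% to 8.27%) were under a lnc-SMaRT peak and 0 under a LacZ peak, with an upper bound of 4.37%. None of the 27 bins inside exon 341, of 5437 bases, and none of the 32 bins inside the 6520-base last exon of an annotated transcript of 45 exons was under a peak of either list. The 4 lnc-SMaRT peaks with no splice edge were the one in exon 347, one in exon 322 (chr2:76725601-76725800, p-value 0.00574) and the pair in exon 309 (chr2:76747201-76747400, 0.00869, and chr2:76747601-76747800, 0.00961). All 4 were wholly exonic, single bins and unshared.

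Of the 347 exons of the longest transcript, 243 (70.0%) were under a lnc-SMaRT peak and 147 (42.4%) under a LacZ peak, 144 of them under both. Exons of 200 to 299 bases, the size class that holds most exons, were under a lnc-SMaRT peak in 110 of 124 cases (88.7%) and under a LacZ peak in 65 (52.4%). Exons under 100 bases were under a lnc-SMaRT peak in 48 of 101 cases (47.5%) and under a LacZ peak in 41 (40.6%). The gap between the lists was smaller over the shortest exons than over those of 200 to 299 bases. The 192 exons of the 81843-nt transcript, which skips 155 exons of the longest one, were under peaks in 73.4% (lnc-SMaRT) and 37.0% (LacZ) of cases, and the skipped exons in 65.8% and 49.0%. A bin with a peak can touch several short exons, and longer exons touch more bins.

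The longest transcript was cut into 10 segments of equal length, and the peaks were densest in segment 3. There 75% of the 88 bins with a splice edge (interval 65.0% to 82.9%) were under a lnc-SMaRT peak and 42.0% (32.3% to 52.5%) under a LacZ peak. In segment 1 the shares were 42.9% and 14.3%, and in segment 4 they were 39.7% and 31.3%. Segment 8 lies mostly in exon 309 and holds 4 bins with a splice edge. The lnc-SMaRT share was the higher one in all 10 segments. The largest stretch of the gene without a lnc-SMaRT peak was chr2:76906601-76932000 (25400 bases), and the largest without a LacZ peak was chr2:76902201-76932200 (30000 bases). The first of these holds exons 44 to 46 of the longest transcript, with 2892 exonic bases under no peak, and also the 6520-base last exon of the transcript of 45 exons.

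**Figure D4:**
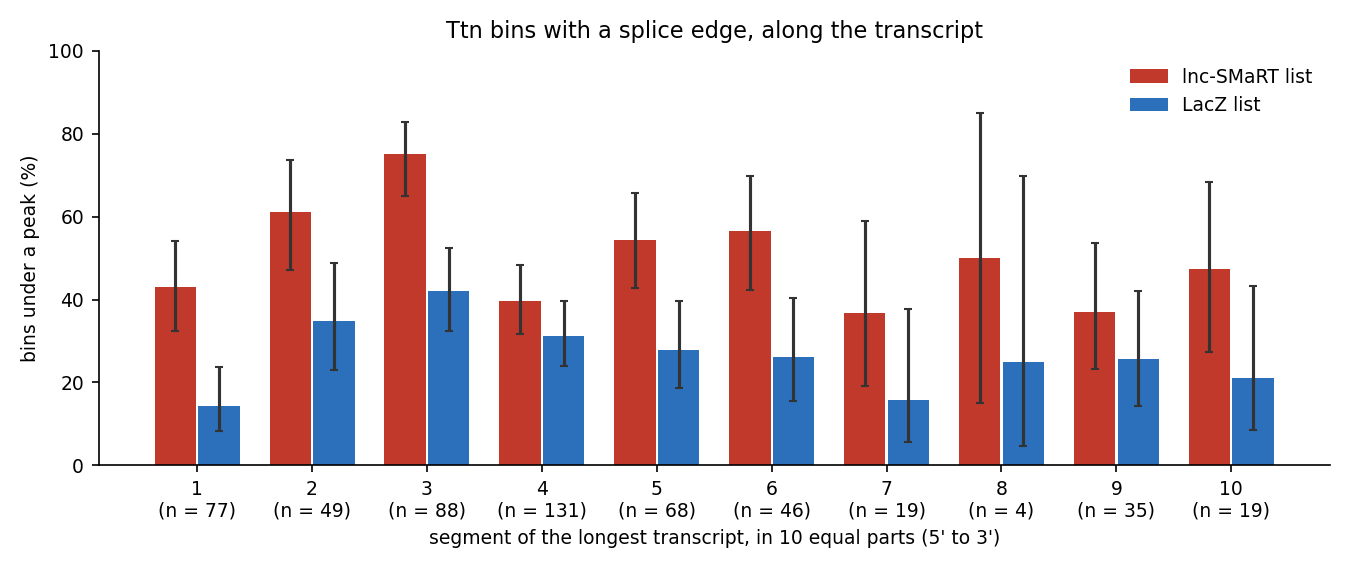
Percent of Ttn bins with a splice edge that were under a peak of each list, by segment of the longest transcript from 5′ to 3′ in 10 equal parts, with 95% Wilson intervals and the number of bins. Segment 3 has the highest share in both lists (75% and 42.0%).

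A pair of runs of 17 exons each, 154 to 170 (1401 exonic bases) and 172 to 188 (1368 exonic bases), was also under no peak of either list. The authors removed reads that map to more than 1 place, so the share of 50-base words of each bin that occur once in the 21 chromosomes of GRCm38.p6 was counted, 50 bases being the read length. Words were unique in less than 50% of positions in 8 bins, all of them without a peak, in exons 166 to 169 and 183 to 187. Every word was unique in 147 of the 148 bins of both lists, in all 137 bins of the lnc-SMaRT list only and in 533 of the 554 bins of neither, and the bins inside exon 309 and exon 341 are not among the 8.

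The composition of the bins followed their intronic part. The median G and C content of whole bins was 41.5% in both lists, 43.5% in the lnc-SMaRT list only, 40.5% in the LacZ list only and 45.5% in neither. Counting exonic bases alone, the medians were 47.5%, 47.6%, 46.9% and 47.1%. None of the 845 bins held 4 runs of at least 3 G within one predicted G-quadruplex, a fold of stacked guanines. Only short loops between the runs were searched, within each bin, and the study's own predictions include longer loops. The weaker form with runs of 2 G was predicted in 9.46% of bins in both lists, 11.7% in the lnc-SMaRT list only and 12.5% in neither.

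The stretches complementary to the probes were short in bins with and without peaks. The longest stretch of a bin complementary to a probe of set 1 had a median of 7 bases in bins of both lists, of the lnc-SMaRT list only and of neither. For the LacZ probes the medians of the same 3 classes were 6 bases. The longest stretch complementary to a set 1 probe was 11 bases, in 1 bin without a peak (chr2:76824001-76824200), and reads GGGGTTCTAGT in the sense of Ttn. For LacZ probes it was 10 bases, in 4 bins, of which 1 was in both lists, 2 in the lnc-SMaRT list only and 1 in neither. The lowest predicted pairing energy of a bin with the lnc-SMaRT transcript (RNAplex, extension cost 30, duplexes of up to 40 bases) had a median of -27 kcal/mol in bins of both lists, -31.8 in the lnc-SMaRT list only and -29.1 in neither. These stretches and energies are descriptions of sequence, and no binding was measured at them.

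Among all genes, Ttn had by far the most peaks. It held 58.0% (interval 52.7% to 63.1%) of the lnc-SMaRT list and 37.5% (32.5% to 42.8%) of the LacZ list. Next in the lnc-SMaRT list were Vps45 with 10 peaks, Mybph with 7, Atf2 and Slc15a4 with 6 each and lnc-SMaRT itself (Gm14635) with 4. Genes with many peaks in the LacZ list included Hsd17b4 with 12, Dpp8 and Usp34 with 10 each, and Hnrnpm, Sp1 and Vps45 with 9 each. Vps45, which encodes a protein of vesicle transport, was the other gene with many peaks in both lists, 8 of them shared, and the lnc-SMaRT peaks of Mybph, Atf2, Slc15a4 and Gm14635 were all unshared. Per kb of annotated exon, Ttn had 1.71 lnc-SMaRT and 1.08 LacZ peaks, fewer than Vps45 with 2.51 and 2.26.

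Ttn was an abundant mRNA in these cells. It ranked 438 of 11642 rows by mean RPKM in si-SCR, and 2 when RPKM was multiplied by annotated exon length, among the 10487 rows (90.1%) with a length. It took from 1.07% to 1.58% of that product in the 4 samples. The whole-read steps of the RPKM values gave 162362 and 246209 reads on Ttn in the si-SCR samples and 129896 and 164168 in the si-SMaRT samples, the smallest whole numbers in these ratios. Relative to si-SCR 1, si-SCR 2 was 1.117 times as deep, si-SMaRT 1 was 0.892 times and si-SMaRT 2 was 1.131 times as deep. The 8 muscle markers (Myod1, Myog, Des, Ckm, Myh3, Acta1, Tmem8c and Gm7325) were listed between 54.8 and 3240 RPKM. Their summed RPKM was 6937 and 7707 in si-SCR and 5868 and 3627 in si-SMaRT. Of 12 markers of other cells, 3 were in the table, Pdgfra of fibroblasts and Cd68 of macrophages at up to 0.723 and 1.13 RPKM and Tubb3 of neurons at 13.6 to 24.1.

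The other question the samples address is whether Ttn mRNA changed when lnc-SMaRT was depleted. Lnc-SMaRT was listed at 19.1 and 15.9 RPKM in si-SCR and 2.88 and 3.66 in si-SMaRT, a log2 difference of -2.39 ± 0.28 (SE) on the log2(RPKM + 0.1) scale (limma adjusted p = 0.000882). Ttn was listed at 109.8 and 149.1 RPKM in si-SCR and at 98.5 and 98.2 in si-SMaRT. Both si-SMaRT values were lower than both si-SCR values, but the si-SCR samples differed from each other by more than the group means did. The log2 difference of -0.38 ± 0.27 did not pass the test (limma adjusted p = 0.745). Fewer differentiated cells and less Ttn RNA per cell cannot be told apart in bulk samples. The study describes independent cell populations. Whether samples of both groups with the same number came from the same population is not stated. For each gene, limma drew the spread between samples towards a trend over all genes. The p-values rest on this adjusted spread, not on that of the gene alone.

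Genes whose proteins bind or neighbour titin, or splice its transcript, were looked up beside it. Of 61 such genes, 56 were tested. Of these, 0 rose and 3 fell, while over all 11086 genes tested 0.180% rose and 0.325% fell. Csrp3, a Z-disc LIM protein, was at 23.1 and 19.3 RPKM in si-SCR and 9.01 and 7.75 in si-SMaRT (log2 difference -1.32 ± 0.27, limma adjusted p = 0.0355). Igfn1, a sarcomeric protein of the immunoglobulin and fibronectin family, was at 4.38 and 4.83 in si-SCR against 1.25 and 0.451 (-2.45 ± 0.38, limma adjusted p = 0.00795). Mybpc2, the fast form of myosin-binding protein C of the thick filament, was at 1.00 and 0.683 against 0.220 and 0.0964 (-1.89 ± 0.39, limma adjusted p = 0.0400). Its mean was 0.843 RPKM in si-SCR and 0.158 in si-SMaRT. It reached the mean of 0.5 needed for testing only through si-SCR, so its fall was in part set by that filter. The groups of these 3 genes do not overlap. The median log2 difference was -0.42 over the 56 genes and 0.02 over all genes, and 43 of the 56 were below 0. Without si-SMaRT 2 the median was -0.20 with 36 genes below 0, and without si-SMaRT 1 it was -0.58 with 45. The summed muscle markers were also lower in si-SMaRT, with si-SMaRT 2 the lowest sample. Acta1, the largest value in each sum, is also one of the partner genes. Of the 8 markers, only Myod1 had a log2 difference above 0 (0.26 ± 0.29). It was at 54.8 and 70.2 RPKM in si-SCR and 95.9 and 57.7 in si-SMaRT. The part of the markers in the shift of the partner genes was not tested. The number of the list past the threshold was 1 without either si-SCR sample, 31 without si-SMaRT 1 and 15 without si-SMaRT 2, and 13 after a trend with GC content was removed.

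**Figure D5:**
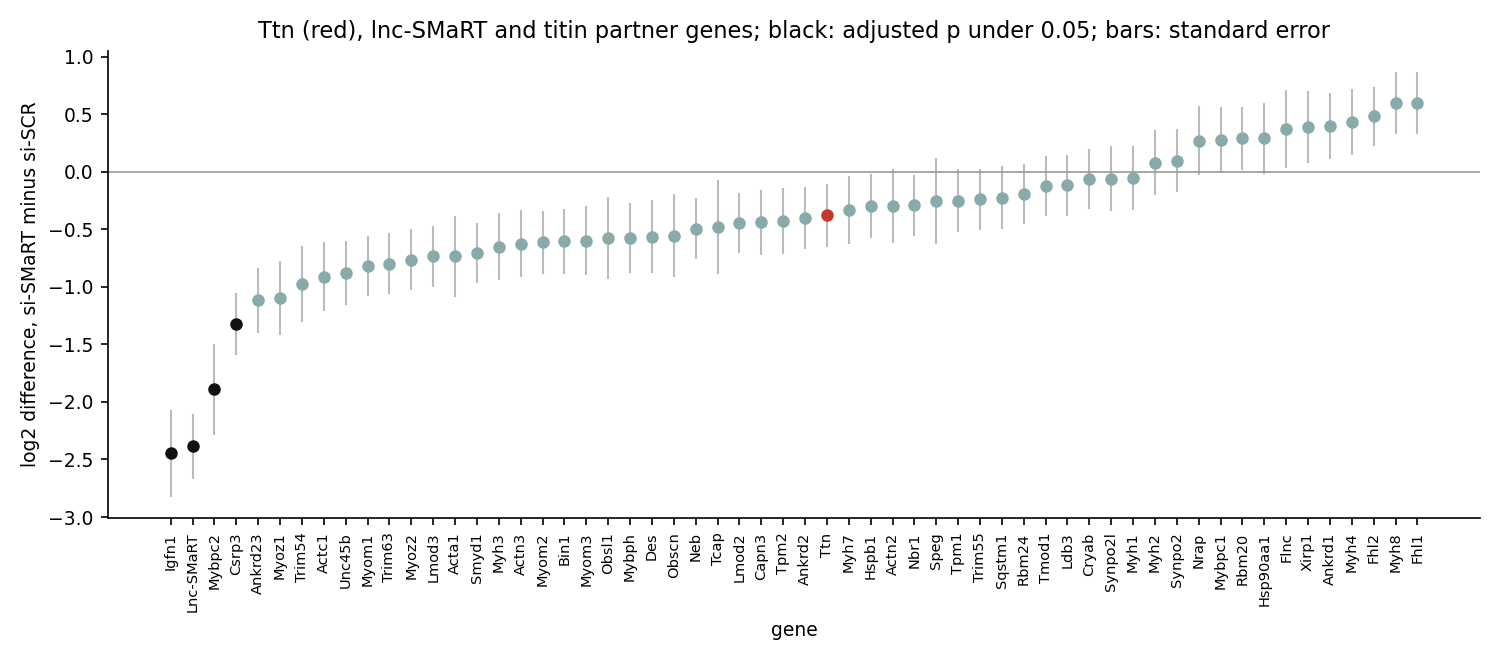
Log2 difference on the log2(RPKM + 0.1) scale, si-SMaRT minus si-SCR, with its standard error, for Ttn (red), lnc-SMaRT and 56 genes of titin partners in order of size. Black points have a limma adjusted p under 0.05; apart from lnc-SMaRT these are Igfn1, Mybpc2 and Csrp3, and Ttn lies at -0.38.

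Some of the partner genes held peaks of the pull-downs. In the lnc-SMaRT list, 5 of the 61 genes held a peak, beside 75 genes other than Ttn in all, and in the LacZ list 3 of the 61 did, beside 40 in all. The share over all genes was not counted, so these numbers do not show whether partner genes held peaks more often than others. The 6 partner genes with a peak were at means from 79.5 to 1210 RPKM in si-SCR. The part of mRNA abundance was not tested. Mybph, a myosin-binding protein of the thick filament, held 7 lnc-SMaRT peaks and 0 LacZ peaks, at a mean of 537 RPKM in si-SCR. Neb, which encodes nebulin, the giant protein along the thin filament, held 0 lnc-SMaRT and 6 LacZ peaks at a mean of 79.5 RPKM. Tpm1, a tropomyosin of the thin filament, held 2 and 1, and Ankrd1, a stress-response ankyrin repeat protein that binds the titin spring, held 1 and 1. Myh3, the embryonic myosin heavy chain, and Sqstm1, an autophagy receptor, held 1 lnc-SMaRT peak each. None of these 6 genes passed the test between si-SMaRT and si-SCR, with limma adjusted p-values from 0.5 in Myh3 to 0.870 in Sqstm1.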

How the data were processed

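Reads of the pull-down libraries were aligned by the authors to GRCm38 with TopHat2 after removal of rRNA and tRNA reads, and mitochondrial, duplicate and multi-mapped reads were removed. The deposited lists give the position and the p-value of each peak, which the authors called with Piranha in bins of 200 bases. Their methods name calls with the input as a covariate for both pull-downs, and calls against LacZ for the lnc-SMaRT pull-down. For the LacZ pull-down only calls with the input are named. The study took a transcript as bound when its exons met peaks of both lnc-SMaRT calls and no LacZ peak. A Ttn transcript with a LacZ peak on its exons does not meet that rule. The lnc-SMaRT list does not say which calls it holds. No read count at a peak is given, so its depth is unknown. The deposited RPKM values were calculated by the authors with edgeR from htseq-count reads on Ensembl 77 genes after removal of genes with low CPM.

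Exons came from GENCODE M21, and peaks of the lists counted as shared where 1 base or more on the same strand was common to both. The peaks, gene lists and tests were chosen with earlier results of these data known. Shares have 95% Wilson intervals. The si-SMaRT and si-SCR samples were compared on log2(RPKM + 0.1) for rows whose mean RPKM reached 0.5, using lmFit and a trended eBayes of limma 3.58.1 (R 4.3.3). P-values were adjusted after Benjamini and Hochberg, and 0.05 was the threshold. On this scale the change of a gene near 0 RPKM comes out too small. Partner genes listed in a row with an overlapping neighbour (3 of 56) kept that row. Mymk and Mymx were found under the symbols Tmem8c and Gm7325. Whole reads were recovered for 11639 of 11640 rows above 0, within a relative tolerance of 1e-11. G and C content of genes, used in an alternative, was known for 11062 of 11642 rows.

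The peaks named in full were, for Ttn, the 4 with the lowest p-value in the lnc-SMaRT list only, those in the LacZ list only (3), the 4 shared peaks with the lowest p-value, the widest of each list and the first and last of each list. The genes named were Ttn, lnc-SMaRT, the 5 other genes with most peaks in each list with ties, partner genes with a peak or past the threshold, and the markers. Withheld items are left out of these names. RNAplex 2.7.2 and Python 3.11.15 were used. Peaks are compared under other overlaps, a stricter p-value and bins as the unit, and the limma results under other pseudocounts, filters, scaling, GC trend, replicate block and with each sample left out.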

Additional observations from a re-analysis of the deposited data

How the results depend on the processing

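The share of lnc-SMaRT peaks on Ttn that were shared with LacZ was 43.5% when start and end had to be identical, 72.0% when peaks within 200 bases counted, 40.6% among peaks with a p-value under 0.001 in both lists and 51.9% in bins. For LacZ peaks it was 69.0% with identical ends and 75% under the stricter p-value. That p-value kept 101 lnc-SMaRT and 56 LacZ peaks on Ttn, all of them on exons, and put Ttn at 32% of the LacZ list. The median G and C content of bins in both lists was 47.5% over exonic bases alone. The other 17 alternatives for the peaks stayed within set limits. These were the interval of a share, 1.5 times for counts and the standard deviation of the bins for G and C content. Over exonic bases, the G and C median of bins in the lnc-SMaRT list only went from 43.5% to 47.6%. That of bins in neither list went from 45.5% to 47.1%.

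The log2 difference of Ttn stayed below 0 and did not pass the test under the 13 alternatives, from -0.16 without si-SCR 2 to -0.60 without si-SCR 1. With the replicate block it was -0.38. The number of genes past the threshold was 56 (20 higher, 36 lower), 37 with quantile normalization, 460 with the GC trend removed, 96 with the replicate block, 112 with the block and the GC trend removed, and 24 to 2908 with each sample left out. In these last fits the lone sample of a group is assumed to vary like the others. Of the partner genes, 3 passed, 1 at a mean RPKM of at least 5, 1 with quantile normalization, 13 with the GC trend removed, 2 with the replicate block, and 1 to 31 with each sample left out. The causes were not tested. The replicate numbers make 2 pairs only, whose deviations correlate at -0.362. This cannot decide whether the samples are paired, so results are given with and without the replicate block.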
